A study of Saccharomyces cerevisiae with 136 samples.

Results

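Autophagy genes were followed in single ageing cells of budding yeast, taken as all genes of the deposited expression table whose standard name in the yeast R64 annotation is ATG followed by a number. The annotation holds 37 such names, and 36 of them have a row among 5997 genes of the table. ATG16 was not analysed here. Cells of the wild-type (WT) strain BY4742, the haploid alpha laboratory strain, were grown on solid SD medium, aligned on an agar plate and freed of their daughters by microdissection until each mother cell was isolated at 2, 16 or 36 h. Every mother cell gave a Smart-seq2 library of its own, a full-length method in which transcripts are primed at the poly(A) tail and carry no molecular identifiers. The cell titles name the sister strain BY4741, whereas the strain entries and the study's methods name BY4742.

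Of the 136 cells listed, 125 have values, with 37 in the 2-h, 43 in the 16-h and 45 in the 36-h age group. By the study's record of divisions, in which the split lies at the mean generation, the older groups fall into slow-dividing and fast-dividing subgroups with 17 cells in 16-h/S, 26 in 16-h/F, 18 in 36-h/S and 27 in 36-h/F. All groups share the strain, the medium and the isolation by hand, and a mother cell that was lost or dead before its time point is not represented. Because the labels name no separate cultures, each group counted as 1 sample, and no test between groups was possible. Differences are therefore given as values with the spread among cells, and intervals cover counting error only.

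Macroautophagy encloses cytoplasm, organelles or protein complexes in a double-membrane vesicle, the autophagosome, and delivers them to the vacuole, where hydrolases break them down and permeases return the amino acids. The Atg1 kinase complex starts the process, Atg9 vesicles and the lipid transfer protein Atg2 feed the growing membrane, a phosphatidylinositol kinase complex marks it, and ubiquitin-like conjugation attaches Atg8 to its lipids. Receptors such as Atg19 tether chosen cargo to Atg8. In growing yeast a constitutive branch, the cytoplasm-to-vacuole targeting (Cvt) pathway, uses much of the same machinery to deliver vacuolar enzymes. Starvation and signalling through TORC1 and protein kinase A are the best known controls of ATG gene transcription.

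Each cell had between 40883 and 833501 reads, with 263709 as the median. The group medians were 270573, 262919 and 252159 at 2, 16 and 36 h, and 199571 in 16-h/S against 277170 in 16-h/F and 186022 in 36-h/S against 325464 in 36-h/F. LYS2, which BY4742 lacks, had reads in 3 of 37, 2 of 43 and 0 of 45 cells at 2, 16 and 36 h, so reads of a gene in up to 3 cells at 2 h or 2 cells at 16 h are no more than this background gave. LEU2 and URA3, which BY4742 also lacks, have no row, and neither has MET17, which BY4741 lacks and BY4742 keeps. Why MET17 has no row was not tested. Of the alpha-cell genes, MF(ALPHA)1 had reads in 19, 28 and 18 cells, MF(ALPHA)2 in 19, 17 and 11, and STE3 in 21, 22 and 7. Of the a-cell genes, the receptor gene STE2 had reads in 1, 0 and 0 cells and BAR1 in 2, 5 and 2. The a-cell genes MFA1 and MFA2 have no row. The sporulation gene IME1 had reads in 1, 0 and 3 cells and SPO11 in 3, 3 and 3. BAR1 and SPO11 had reads in more cells than LYS2 at 16 and 36 h, as did IME1 at 36 h. Of the 3 daughter-cell genes, DSE1 had reads in 2, 14 and 8 cells, DSE2 in 5, 21 and 5 and CTS1 in 3, 17 and 15 cells at 2, 16 and 36 h, and the part of attached daughters in the results below was not tested.

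ATG transcripts were scarce in these cells. Of all values of the 36 genes, 78.1% were 0, against 62.9% over the whole table. Across the 125 cells, the genes had reads in 4.8% to 44.8% of cells, with a median of 21.6%. The median share of cells with reads over the ATG genes was 12.2%, 22.1% and 26.7% at 2, 16 and 36 h, whereas over all genes of the table it was 27.03%, 34.9% and 31.1%. No ATG gene had reads in at least 50% of cells at 2 or 16 h, and 4 did at 36 h, namely ATG8, ATG19, ATG42 and ATG44. ATG34 and ATG39 had no reads in any of the 37 cells at 2 h, which allows a share of up to 8.11% of cells (3 of 37), and ATG32 had none in the 43 cells at 16 h, which allows up to 6.98% (3 of 43). At this depth a missing gene counts as not detected, not as silent.

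**Figure D1:**
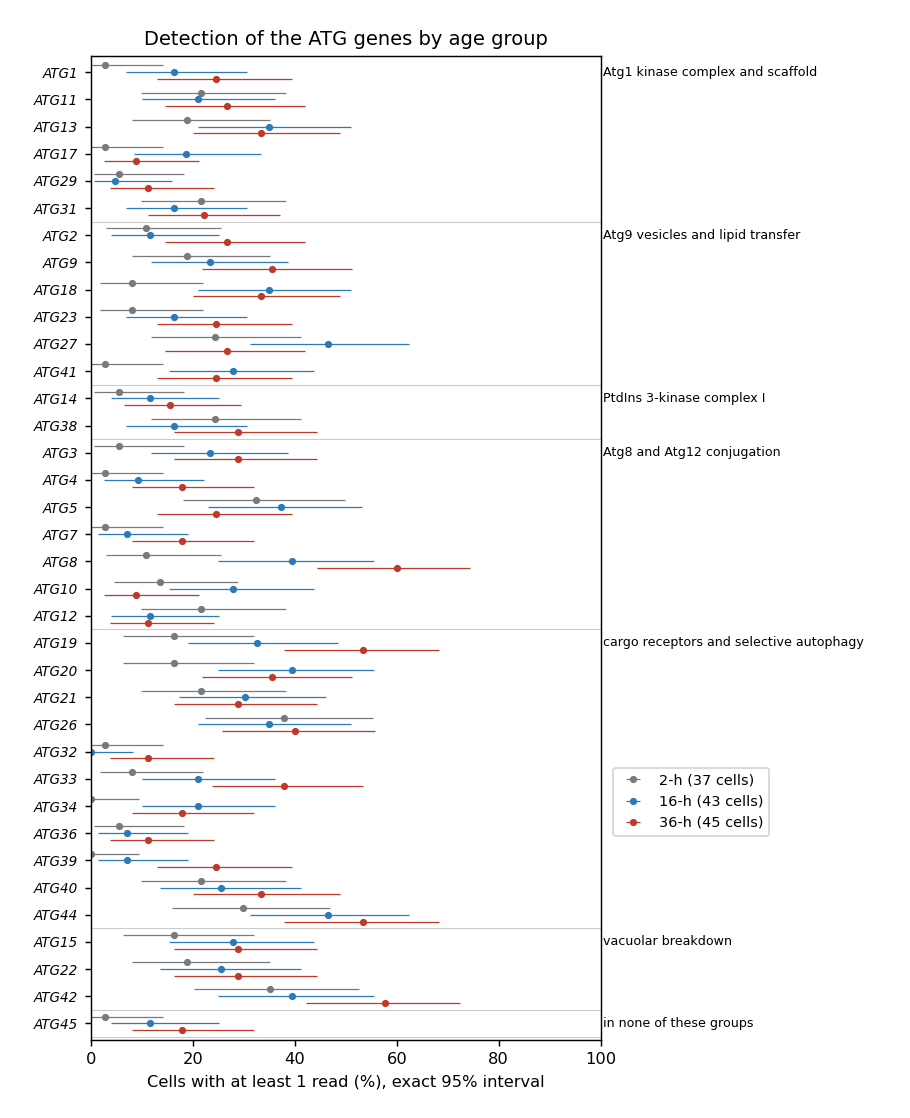
Share of cells with at least 1 read (x axis, percent, with exact 95% intervals) for each of the 36 ATG genes (y axis, grouped by role) in the 2-h (grey), 16-h (blue) and 36-h (red) age groups. ATG8 moves furthest, with 10.8%, 39.5% and 60.0% of cells at 2, 16 and 36 h, and at 36 h ATG42 has the next highest share, 57.8%.

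Compared as RPKM, reads scaled by gene length and by the reads of the cell, which allows genes of different length to be set side by side, the mean level over all 125 cells ran from 4.44 for ATG32, the mitophagy receptor, to 126 for ATG8. ATG41, ATG44 and ATG42 followed ATG8 with levels between 101 and 112 on this scale. At 36 h the levels of ATG8, ATG41, ATG42 and ATG44 were 238, 226, 159 and 142 on the same scale. ATG44, ATG8 and ATG41 are short genes of 284, 354 and 411 bases, and the part of gene length in this order was not tested. By reads over all cells, ATG8 with 1411 lay below ATG5 with 2007 and ATG9 with 1715.

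Counted cell by cell, more of the ATG genes had reads in older cells. A cell had reads of 1 to 11 ATG genes (median 5) at 2 h, of 2 to 16 (median 7) at 16 h, and of 2 to 16 (median 10) at 36 h. The means were 4.97 ± 2.48, 8.26 ± 3.28 and 9.91 ± 3.67 ATG genes per cell (SD among 37, 43 and 45 cells), and the ranges of the groups overlap. With every cell reduced to 40000 reads, the expected numbers were 3.77 ± 2.14, 6.41 ± 2.61 and 8.42 ± 3.13. The number of all genes with reads, 2078, 2350 and 2229 on average, did not follow the same order. As a share of the genes with reads in a cell, ATG genes made up 0.232 ± 0.0960%, 0.348 ± 0.102% and 0.442 ± 0.135% at 2, 16 and 36 h. ATG transcripts averaged 1083 ± 914, 1582 ± 1006 and 2524 ± 1684 RPM, their reads scaled to the total of the cell.

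**Figure D2:**
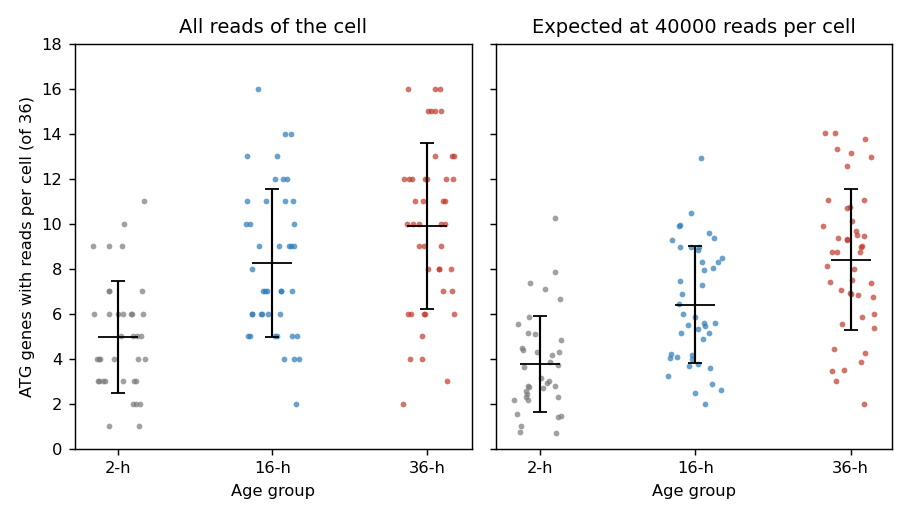
Number of ATG genes with reads in each cell (y axis, of 36) by age group (x axis), from all reads of the cell (left) and the number to expect at 40000 reads per cell (right), where each point is 1 cell and the bars give the mean and SD among cells. The means are 4.97, 8.26 and 9.91 on the left and 3.77, 6.41 and 8.42 on the right, and the 3 groups overlap in both.

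The level of a gene in a cell is given as log2 normalized counts, the log2 of its reads divided by the size factor of the cell plus 1, and a difference between groups is the difference of their means. On this scale 32 of the 36 ATG genes (88.9%) had a higher mean at 36 h than at 2 h, against 63.6% of all genes, and 4 had a lower one, ATG26, ATG12, ATG11 and ATG10, with differences between -0.32 and -0.02. The median difference over the ATG genes was 0.79, against 0.23 over all genes. A difference of at least 1 log2 unit was reached in the higher direction by 13 ATG genes (36.1%), against 18.3% of all genes, and in the lower direction by 0 ATG genes, against 9.92% of all genes. The count depends on the scale for genes this scarce. In a random draw of 40000 reads per cell only ATG8 and ATG19 reached 1 log2 unit, 2 of 36 against 6.82% of all genes. After 10 in place of 1 was added to the normalized counts only ATG8 did. The median over the ATG genes lay above that of all genes on each of these scales, with 0.39 against 0.08 at 40000 reads and 0.34 against 0.11 with 10 added.

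The comparison of 16-h with 2-h cells uses the same 2-h cells. The median difference over the ATG genes was 0.35, against 0.11 over all genes, and 25 of 36 (69.4%) had a higher mean at 16 h, against 58.2% of all genes. ATG18, ATG20, ATG8, ATG27 and ATG41 were at least 1 log2 unit higher, 5 of 36 against 8.27% of all genes, and 0 were at least 1 lower, against 4.42% of all genes. Between 36-h and 16-h cells the median difference was 0.45 for the ATG genes and 0.11 for all genes, and 32 of 36 (88.9%) had a higher mean at 36 h, against 57.4% of all genes. ATG8, ATG19, ATG33 and ATG42 were at least 1 log2 unit higher at 36 h than at 16 h, 4 of 36 against 10.8% of all genes, and 0 were at least 1 lower, against 6.44% of all genes. The share of ATG genes past 1 log2 unit between 36 and 16 h was thus close to that of all genes. When the cells were scaled to the same sum, the median of all genes in this comparison was -0.01 and that of the ATG genes 0.36, and only ATG8 was at least 1 log2 unit higher.

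**Figure D3:**
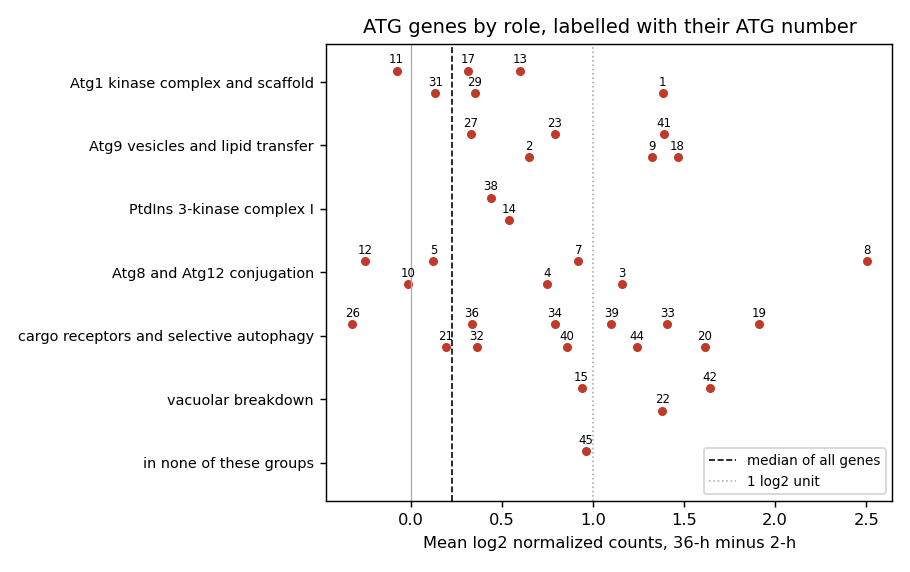
Difference of mean log2 normalized counts, 36-h minus 2-h (x axis, log2 units), for the 36 ATG genes by role (y axis), each point labelled with its ATG number, with the median of all genes (dashed, 0.23) and 1 log2 unit (dotted). ATG8 lies furthest to the right at 2.50 and ATG26 furthest to the left at -0.32.

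Among the 6 genes of the Atg1 kinase complex and its scaffold, only ATG1 passed 1 log2 unit at 36 h, and the median difference of the 6 was 0.33. ATG1, the protein kinase that starts autophagosome formation (chromosome VII, 160065 to 162758, plus strand), had reads in 1 of 37 cells at 2 h, 7 of 43 at 16 h and 11 of 45 at 36 h. The 1 read at 2 h (Poisson 95% interval 0.0253 to 5.57 reads) stood against 843 reads (787 to 902) at 16 h and 460 (419 to 504) at 36 h. Of the 843 reads, 526 came from 2 16-h/S cells. The Poisson intervals leave out the spread among cells, and reads without molecular identifiers are not independent molecules. Its mean in 36-h cells was 1.43 ± 2.71 log2 normalized counts, against 0.05 ± 0.29 in 2-h cells, with a difference of 1.38. With 0.0914, 65.0 and 38.4 RPM in the pooled libraries at 2, 16 and 36 h, ATG1 was higher at 16 h than at 36 h, unlike its mean log2 values of 0.86 and 1.43, and pooling weights each cell by its reads. ATG13, the regulatory subunit of the kinase, and ATG11, the scaffold of selective autophagy, differed by 0.60 and -0.08 between 36 and 2 h. ATG29, a subunit of the scaffold that acts in starvation, overlaps the gene SET6, and reads of the 2 genes cannot be told apart in its difference of 0.35.

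Of the 6 genes of Atg9 vesicles and lipid transfer, ATG18, ATG41 and ATG9 passed 1 log2 unit between 36 and 2 h, and all 6 were on the higher side with a median of 1.06. ATG18, a phosphoinositide-binding partner of Atg2, had reads in 3 of 37, 15 of 43 and 15 of 45 cells at 2, 16 and 36 h. Its mean in 36-h cells was 1.96 ± 3.11, against 0.49 ± 1.76 in 2-h cells, with a difference of 1.46 log2 units, and that of 16-h cells was 1.86 ± 2.92. ATG9, the transmembrane lipid scramblase of the vesicles, had reads in 7, 10 and 16 cells and differed by 1.32 between 36 and 2 h. ATG41, which acts with Atg9, had reads in 1, 12 and 11 cells and differed by 1.39.

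The ATG members of the phosphatidylinositol kinase complex, ATG14 and ATG38, differed by 0.54 and 0.44 between 36 and 2 h, and neither passed 1 log2 unit.

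ATG8 had the largest difference of all ATG genes. Its product is the ubiquitin-like protein that is attached to phosphatidylethanolamine on the growing membrane and binds cargo receptors. The gene (YBL078C, chromosome II, 80378 to 80731, minus strand) had reads in 4 of 37 cells (10.8%, exact interval 3.03% to 25.4%) at 2 h, 17 of 43 (39.5%, 24.98% to 55.6%) at 16 h and 27 of 45 (60.0%, 44.3% to 74.3%) at 36 h. The median over cells was 0, 0 and 2.71 log2 normalized counts, and the highest cell had 4.996, 5.78 and 8.28. The intervals of the 36-h and 2-h shares do not overlap, while the values of single cells do. These intervals cover counting error only and are no test between the groups. The 36-h cells averaged 2.83 ± 2.66 and the 2-h cells 0.33 ± 1.04, with a difference of 2.50, and 3.07% of all genes had a difference at least as large. In cells with ATG8 reads the mean level was 3.06, 3.69 and 4.72 at 2, 16 and 36 h. Both the number of positive cells and the level within them followed the order of age, but the 2-h level rests on only 4 cells. The later step is not particular to ATG8. Among 5102 genes with enough positive cells, 80.6% had a larger within-cell level in the 36-h group than in the 16-h group (median 0.66). From the 2-h to the 16-h group 37.6% of 4610 such genes rose (median -0.24). Pooled over the cells of a group, ATG8 had 72 reads (56.3 to 90.7) at 2 h, 452 (411 to 496) at 16 h and 887 (830 to 947) at 36 h. The intervals of these read counts leave out the spread among cells. At 40000 reads per cell the expected shares were 7.63%, 31.9% and 52.4%.

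Of the other 6 genes of Atg8 and Atg12 conjugation, ATG3, which encodes the enzyme that transfers Atg8 to the lipid, passed 1 log2 unit with 1.16 between 36 and 2 h and had reads in 2, 10 and 13 cells at 2, 16 and 36 h. ATG7, the activating enzyme, and ATG4, the protease that processes Atg8, differed by 0.92 and 0.75. The Atg12 branch stayed closer to 0, with 0.12 for ATG5, -0.02 for ATG10 and -0.25 for ATG12.

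**Figure D4:**
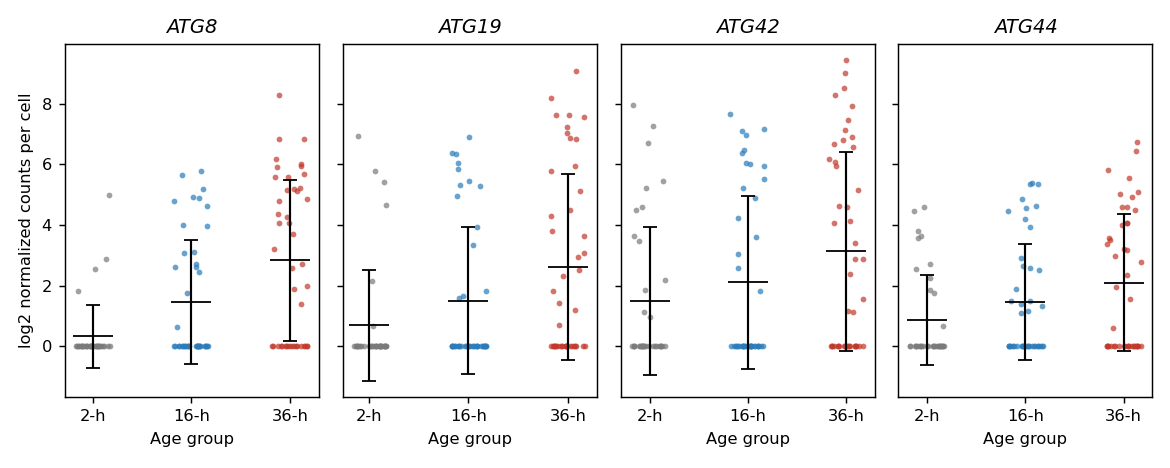
Log2 normalized counts (y axis) of ATG8, ATG19, ATG42 and ATG44 in each cell by age group (x axis), where each point is 1 cell and the bars give the mean and SD among cells. For ATG8 the means are 0.33, 1.46 and 2.83 at 2, 16 and 36 h, and cells without reads lie at 0 in every group.

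Among the 11 genes of cargo receptors and selective autophagy, ATG19, ATG20, ATG33, ATG44 and ATG39 passed 1 log2 unit between 36 and 2 h, and the median of the 11 was 0.86. ATG19, the receptor that binds the aminopeptidase Ape1 in the Cvt pathway (chromosome XV, 168727 to 169974, plus strand), had reads in 6 of 37 cells (16.2%) at 2 h, 14 of 43 (32.6%) at 16 h and 24 of 45 (53.3%) at 36 h. Its highest cell had 6.94, 6.91 and 9.09 log2 normalized counts, and the median cell 0, 0 and 1.18. The 36-h cells averaged 2.60 ± 3.06 and the 2-h cells 0.69 ± 1.82, with a difference of 1.91. The exact intervals of the shares, 37.9% to 68.3% at 36 h and 6.19% to 32.01% at 2 h, do not overlap, which is no test between the groups.

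ATG44, which encodes the mitochondrial fission factor mitofissin needed for mitophagy, had reads in 11 of 37, 20 of 43 and 24 of 45 cells at 2, 16 and 36 h. Its highest cell had 4.59, 5.37 and 6.72 log2 normalized counts, and its mean was 1.24 higher at 36 h than at 2 h. ATG33, a mitochondrial outer membrane protein of mitophagy, had reads in 3, 9 and 17 cells and differed by 1.41. The mitophagy receptor gene ATG32 itself had reads in 1, 0 and 5 cells, and its difference was 0.36. ATG39, the receptor for autophagy of the nuclear envelope, had no reads at 2 h and reads in 3 cells at 16 h and 11 at 36 h. Its mean was 1.101 ± 2.23 at 36 h. ATG20, a sorting nexin, had reads in 6, 17 and 16 cells and differed by 1.61. ATG26, a sterol glucosyltransferase that is not needed for autophagy in this species, had reads in 14 of 37, 15 of 43 and 18 of 45 cells at 2, 16 and 36 h and differed by -0.32 between 36 and 2 h.

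The 3 genes of vacuolar breakdown had a median difference of 1.38 between 36 and 2 h. ATG42, a vacuolar carboxypeptidase that takes part in breaking down autophagic bodies (chromosome II, 515664 to 517190, plus strand), had reads in 13 of 37, 17 of 43 and 26 of 45 cells. Its median cell had 0, 0 and 2.39 log2 normalized counts and its highest 7.94, 7.65 and 9.43. The 36-h cells averaged 3.13 ± 3.28 and the 2-h cells 1.48 ± 2.43, with a difference of 1.64. ATG22, which encodes a vacuolar amino acid exporter, differed by 1.38 and had reads in 7, 11 and 13 cells. ATG15, the lipase that opens autophagic bodies, differed by 0.94. ATG45, a receptor for glycogen outside these role groups, differed by 0.96.

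Whether the leading genes had reads in the same cells was counted against their separate shares. At 36 h ATG8 and ATG19 had reads together in 18 of 45 cells, where 14.4 cells follow from their shares alone, ATG8 and ATG42 in 17 cells against 15.6, and ATG8 and ATG44 in 13 cells against 14.4. These counts differ by at most 3.6 cells from the separate shares, and the part of depth in them was not tested.

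The 500 bases before each start codon were searched on both strands for 3 short motifs known from nutrient and stress control. These were the stress response element bound by Msn2 and Msn4 (AGGGG), the core bound by GATA factors such as Gat1 and Gln3 (GATAAG), and the core of URS1 (GCCGCC), the element through which Ume6 represses ATG8 in growing cells. The stress response element was found before 17 of 36 ATG genes (47.2%), against 34.5% of 5684 annotated genes of the table, the GATA core before 14 (38.9%), against 22.8%, and the URS1 core before 4 (11.1%), namely ATG8, ATG19, ATG42 and ATG45, against 9.52%. ATG8 and ATG19 were the only ATG genes with all 3 motifs. Their windows and those of ATG42 are printed because these genes had the highest 3 differences between 36 and 2 h, read 5′ to 3′ toward the gene from the RefSeq R64 genome, with the matches in capitals.
ATG8 URS1 core, chrII:80847-80876, minus strand: ccggttattttcGGCGGCGGCaaaaatatt
ATG8 stress response element, chrII:80805-80834, minus strand: ggaaatacaaaaAGGGGaaccattaaaggt
ATG8 GATA core, chrII:80774-80803, minus strand: gaggaggggattGATAAGagaatctaataa
ATG19 stress response element, chrXV:168545-168574, plus strand: atgacccggaaaAGGGGcgtgtgacattgc
ATG19 GATA core, chrXV:168628-168657, plus strand: tgatatgagtttGATAAGgtgtatcagacg
ATG19 URS1 core, chrXV:168672-168701, plus strand: cgaggtaattgcGGCGGCacttgcttcagt
ATG42 stress response elements, chrII:515566-515595, plus strand: tcgaaaaatgtcAGGGGacAGGGGttatat
ATG42 URS1 core, chrII:515511-515540, plus strand: aaaaatggccgaGGCGGCgctagcattcta

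In ATG8 the URS1 match consists of overlapping copies of the reverse complement of the core, 133 and 130 bases before the start codon, and in ATG42 the stress response elements lie side by side, 86 and 79 bases before it. The GATA window of ATG8 also holds its other stress response element, 68 bases before the start codon and in lower case here. Among all genes with each motif, the share at least 1 log2 unit higher at 36 h than at 2 h was 28.5% for the stress response element, 21.4% for the GATA core and 119 of 541 for the URS1 core, against 13.1% of the 2647 genes with none of them. Of the 17 ATG genes with a stress response element, 8 were at least 1 log2 unit higher (47.1%), against 5 of the 19 without (26.3%), and the medians of these groups were both 0.79. For the GATA core these were 6 of 14 (42.9%) against 7 of 22 (31.8%), and for the URS1 core 3 of 4 against 10 of 32. Of the 12 ATG genes with none of the 3 motifs, 4 were at least 1 higher (33.3%), against 9 of the other 24 (37.5%). A match is a description of these letters and not a measured binding site.

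Slow-dividing and fast-dividing cells of one age were compared next, to see whether ATG transcripts follow the division record. The mean log2 level over the ATG genes was 0.87 ± 0.35 in 16-h/S and 0.97 ± 0.41 in 16-h/F, and 1.36 ± 0.64 in 36-h/S and 1.39 ± 0.52 in 36-h/F. The number of ATG genes with reads was 7.35 ± 2.78 in 16-h/S against 8.85 ± 3.50 in 16-h/F, and 8.72 ± 3.801 in 36-h/S against 10.7 ± 3.43 in 36-h/F. Slow-dividing cells had fewer reads and fewer genes of any kind, and as a share of the genes with reads the ATG genes made up 0.347% in 16-h/S against 0.350% in 16-h/F, and 0.438% in 36-h/S against 0.445% in 36-h/F. ATG transcripts made up 1559 ± 821 RPM in 16-h/S and 1597 ± 1126 RPM in 16-h/F, and the order was the other way at 36 h, with 2933 ± 1919 RPM in 36-h/S and 2251 ± 1483 RPM in 36-h/F. All these differences are within the SD among cells, which does not measure the error of a difference of means. The 36-h against 2-h differences of ATG8 (2.50) and ATG19 (1.91) are also within the SD of the 36-h cells, 2.66 and 3.06. At most 0.5 of the reads came from the ERCC spike-in in 12 of 17 16-h/S and 25 of 26 16-h/F cells, and in 13 of 18 36-h/S and 24 of 27 36-h/F cells. In these cells alone, 2 ATG genes were at least 1 log2 unit higher in S at 16 h and 2 at least 1 lower, against 7.15% and 9.67% of all genes. At 36 h the counts were 5 and 3, against 9.14% and 14.9% of all genes. Whether the ERCC share is a cause of the S and F results was not tested. The median difference over the ATG genes was -0.06 at 16 h and -0.05 at 36 h, against -0.17 for all genes at both times. At 16 h, 1 ATG gene was at least 1 log2 unit higher in S, against 3.62% of all genes, and 4 were at least 1 lower, against 11.1% of all genes. At 36 h, 3 were at least 1 higher in S, against 6.35% of all genes, and 4 were at least 1 lower, against 15.5% of all genes. Taken over the 36 genes, these shares are near those of all genes. The comparisons at 16 and 36 h share no cells, and 12 ATG genes (33.3%) were lower in S at both times, against 38.1% of all genes, 7 (19.4%) were higher at both, against 15.4%, 16 (44.4%) lay on opposite sides, against 45.2%, and 1 had no difference at one time.

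ATG27 was the only ATG gene at least 1 log2 unit lower in S at both times, 1 of 36 (2.78%) against 2.85% of all genes, and 0 were at least 1 higher at both, against 0.5% of all genes, so the number of such ATG genes was near that of all genes. It encodes a membrane protein that cycles with Atg9 and is needed for its vesicles (YJL178C, chromosome X, 89282 to 90097, minus strand). At 16 h it had reads in 1 of 17 16-h/S cells (5.88%, exact interval 0.149% to 28.7%) and 19 of 26 16-h/F cells (73.1%, 52.2% to 88.4%). The highest cell had 4.98 log2 normalized counts in 16-h/S and 7.42 in 16-h/F, with medians of 0 and 3.59. The mean was 0.29 ± 1.21 in 16-h/S and 3.09 ± 2.45 in 16-h/F, a difference of -2.80, and only 2 of all genes had a lower one. The intervals of the shares do not overlap. They cover counting error only, and ATG27 was singled out by its difference in these same cells, so this is no test. At 40000 reads per cell the expected shares were 5.86% and 61.3%. At 36 h ATG27 had reads in 1 of 18 36-h/S cells (5.56%, 0.141% to 27.3%) and 11 of 27 36-h/F cells (40.7%, 22.4% to 61.2%), and the mean was 0.34 ± 1.45 in 36-h/S and 1.76 ± 2.32 in 36-h/F, a difference of -1.42. At 36 h the intervals overlap, and 7.60% of all genes had a difference at least as low.

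Across the cells of one age, the level of ATG27 and the generation had Pearson's r of 0.30 at 16 h (Spearman's rho 0.34, n = 43, and r 0.38 after the 2 cells of most extreme generation were left out) and 0.23 at 36 h (rho 0.29, n = 45, and r 0.20 without 2 cells). The genes on either side of ATG27 on chromosome X were looked at after its values were known. RPL17B differed by -0.78 between 16-h/S and 16-h/F and by -0.42 between 36-h/S and 36-h/F, and PFD1 by -1.04 and -0.11. With the generation, PFD1 had r of 0.32 at 16 h and 0.06 at 36 h, and RPL17B 0.23 and 0.20. The number of all genes detected had r of 0.28 and 0.47, and ATG40 had 0.35 and -0.38. An r of this size at 16 h was thus not particular to ATG27. In 2-h cells ATG27 had reads in 9 of 37 cells, against 20 of 43 at 16 h and 12 of 45 at 36 h.

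Other ATG genes passed 1 log2 unit between S and F at one time only. At 16 h, ATG15 had reads in 2 of 17 16-h/S and 10 of 26 16-h/F cells with a difference of -1.58, ATG44 in 4 and 16 cells with -1.14, and ATG40, the receptor for autophagy of the endoplasmic reticulum, in 3 and 8 cells with -1.04. ATG11 had reads in 5 16-h/S and 4 16-h/F cells and a difference of 1.08. At 36 h, the differences of these 4 genes were 0.55, -0.01, 0.94 and -0.32, so that none kept its side past 1 log2 unit.

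At 36 h ATG41 was 2.07 log2 units higher in S, and 0.600% of all genes had a difference at least as high. It had reads in 7 of 18 36-h/S cells with values from 4.32 to 8.86 log2 normalized counts, and in 4 of 27 36-h/F cells with values from 3.48 to 6.07. The mean was 2.77 ± 3.68 in 36-h/S and 0.69 ± 1.74 in 36-h/F. The exact intervals of the shares, 17.3% to 64.3% in 36-h/S and 4.19% to 33.7% in 36-h/F, overlap. Its correlation with the generation at 36 h was r -0.50 (rho -0.38, n = 45), and -0.30 after the 2 cells of most extreme generation were left out. At 16 h the difference of ATG41 was -0.29. ATG26 and ATG13 were also higher in 36-h/S, by 1.26 and 1.218, with reads in 10 of 18 and 7 of 18 36-h/S cells and 8 of 27 36-h/F cells for each.

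ATG42 was detected in fewer slow-dividing cells at 36 h but at a higher level where it was detected. It had reads in 6 of 18 36-h/S cells, with values from 6.66 to 8.51 log2 normalized counts, and in 20 of 27 36-h/F cells, with values from 1.14 to 9.43. The mean over all cells differed by -1.01 and the mean over cells with reads by 2.80. ATG40 had reads in equal shares of cells, 6 of 18 36-h/S and 9 of 27 36-h/F cells, with values from 5.77 to 8.09 in 36-h/S and from 0.50 to 7.93 in 36-h/F. In the 16 ATG genes with reads in at least 5 cells of both subgroups, the mean over cells with reads was higher in S for all 16, against 75.6% of the 3105 genes that could be compared, with a median of 0.85, against 0.60 over those genes. ATG23, which also cycles with Atg9, had reads in 1 of 18 36-h/S cells and 10 of 27 36-h/F cells and a difference of -1.34. At 16 h the difference of ATG23 was 0.41. ATG9 itself was higher in S at both times, by 0.46 at 16 h and 0.37 at 36 h. Of the 6 genes of Atg9 vesicles and lipid transfer, 3 were higher and 3 lower in S at each time. ATG22 had reads in 3 36-h/S and 10 36-h/F cells and a difference of -1.08.

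**Figure D5:**
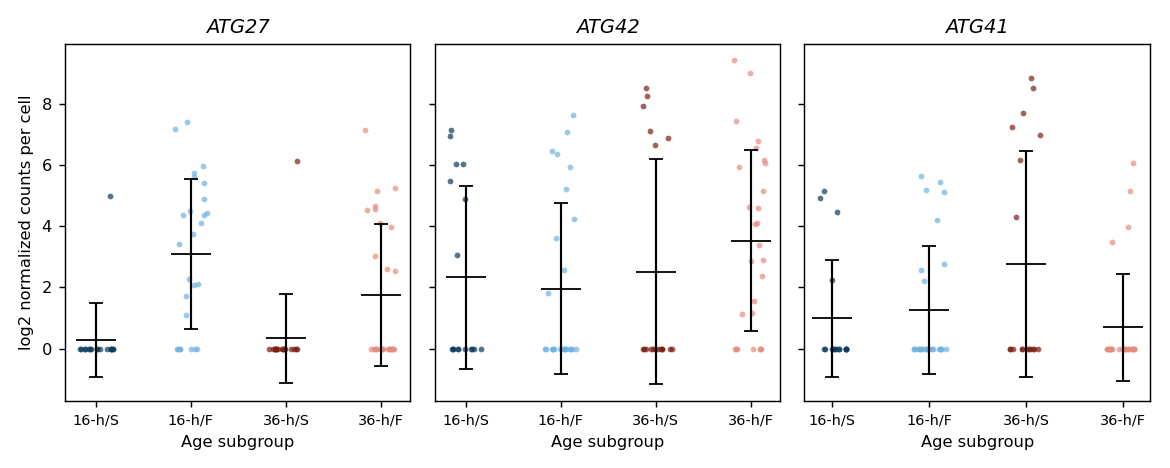
Log2 normalized counts (y axis) of ATG27, ATG42 and ATG41 in each cell of the slow-dividing (S) and fast-dividing (F) subgroups at 16 and 36 h (x axis), where each point is 1 cell and the bars give the mean and SD among cells. ATG27 has reads in 1 cell of each S subgroup and in 19 and 11 cells of the F subgroups at 16 and 36 h.

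The mean level over all ATG genes hardly followed the generation. Pearson's r was -0.03 at 16 h (Spearman's rho -0.04, n = 43) and -0.08 at 36 h (rho 0.01, n = 45), and -0.04 and 0.10 after the 2 cells of most extreme generation were left out. The number of all genes detected, which shares its libraries with these values, had r of 0.28 and 0.47 with the generation at 16 and 36 h.

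Genes of the pathway without an ATG name were set beside the members. Of 14 partners, such as subunits of the phosphatidylinositol kinase complex and vacuolar fusion factors, 3 were at least 1 log2 unit higher at 36 h than at 2 h and 0 lower, and the median was 0.39. These were SNX4, the sorting nexin that pairs with Atg20, with 1.71, YPT7, the vacuolar Rab protein, with 1.19, and VAC8, a vacuolar armadillo protein that binds Atg13, with 1.04. Of the 4 cargo enzymes of selective autophagy, 3 were at least 1 higher and the median was 2.25. APE1, the aminopeptidase that Atg19 delivers, had reads in 13 of 37, 27 of 43 and 36 of 45 cells at 2, 16 and 36 h, and averaged 5.33 ± 3.25 in 36-h cells and 1.83 ± 2.66 in 2-h cells, with a difference of 3.50. AMS1, the vacuolar mannosidase that is also carried by Atg19, and APE4, an aspartyl aminopeptidase, differed by 2.38 and 2.11.

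Of 24 regulators of autophagy, 10 were at least 1 log2 unit higher at 36 h than at 2 h and 2 were at least 1 lower, with a median of 0.70. GAT1, a GATA activator of nitrogen-starvation genes, differed by 2.03. On the lower side, GCN4, the activator of amino acid synthesis genes, differed by -1.73, and SCH9, a kinase downstream of TORC1, by -1.07. These lists are described by their counts, beside 18.3% of all genes at least 1 log2 unit higher and 9.92% at least 1 lower.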

How the data were processed

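Smart-seq2 libraries of 125 single BY4742 cells were analysed. Reads were aligned by the authors to the R64 genome with HISAT2 2.1.0, sorted with SAMtools 1.1 and counted per gene with featureCounts. The authors deposited log2 normalized counts, that is reads divided by a DESeq2 size factor of the cell, plus 1, on the log2 scale. The strand setting of the counting is not given in the sources used here, and neither is the filter on genes.

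Undoing the log2 gave whole reads for all 278228 values above 0, with a largest deviation of 7.37e-05 at a tolerance of 0.05. Expected detection at 40000 reads per cell is exact and hypergeometric. Log2 differences at 40000 reads come instead from a random draw of reads in each cell, so counts past a threshold can change with the draw. Identifiers were matched to the R64 annotation, where 5693 were found and 304 were not. No ATG gene holds a 50-base stretch found elsewhere in the genome, and ATG29 alone overlaps an annotated gene. Overlaps with the 304 other identifiers were not tested.

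Groups came from the labels, and S and F with the generation from the study's record of each cell, which the labels do not give. With 1 sample per group no test was made. Means, SDs among cells, differences of means, exact Clopper-Pearson intervals (95%) and exact Poisson intervals were computed with Python 3.11.15, numpy 2.4.6, pandas 2.3.3 and scipy 1.17.1, and the scripts were tested on simulated data. Of the genes, 20 are named with values by rule, those detected in 50% or more of any age group's cells, those with a difference of at least 1 log2 unit in any of 5 comparisons, and ATG1 and ATG8. The others are given by role, some with their difference. The values of 1 regulator are not reported here. Members and lists were chosen with earlier results of these data known. Alternatives were other scalings, 40000 reads, 10 added to the counts, a ratio of mean counts, a filter at 10% of cells, cells with an ERCC spike-in share of at most 0.5, and cells with reads only.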

Additional observations from a re-analysis of the deposited data

How the results depend on the processing

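No paired analysis was possible because no test was made and cell numbers only name cells. In 82 of 123 comparisons of a group result with an alternative, counts stayed within 1.5 times the reported one and other values within 1 SD among cells. The exceptions follow, and beyond what each alternative does by construction the cause was not tested.

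For 36-h against 2-h, the ATG genes at least 1 log2 unit higher numbered 2 at 40000 reads, 1 with 10 added and 29 by the ratio of mean normalized counts with 1 added to each mean, and those at least 1 lower numbered 2 by the ratio and 2 among cells with reads only. By the ratio the median was 1.94 and 37.02% of all genes were at least 1 higher. For 16-h against 2-h, the higher ATG genes numbered 0 at 40000 reads, 0 with 10 added, 18 by the ratio and 3 among cells with reads only, the lower ones 3 by the ratio and 4 among cells with reads only, and the median was 1.00 by the ratio. For 36-h against 16-h, the higher ones numbered 1 with cells scaled to the same sum, 0 at 40000 reads, 0 with 10 added, 20 by the ratio and 15 among cells with reads only, the lower ones 2 by the ratio, and the median was 1.13 by the ratio and 1.14 among cells with reads only.

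For 16-h/S against 16-h/F, the higher ATG genes numbered 0 at 40000 reads, 0 with 10 added, 9 by the ratio and 2 with the ERCC limit, the lower ones 1 at 40000 reads, 1 with 10 added, 7 by the ratio, 2 with the ERCC limit and 1 among cells with reads only, and the median among cells with reads only was 0.55. For 36-h/S against 36-h/F, the higher ones numbered 1 at 40000 reads, 1 with 10 added, 11 by the ratio, 5 with the ERCC limit and 7 among cells with reads only, the lower ones 0 at 40000 reads, 0 with 10 added and 0 among cells with reads only, and the median was 0.66 by the ratio and 0.85 among cells with reads only.

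Within 1 SD, the median for 16-h/S against 16-h/F, reported as -0.06, crossed 0 to 0.01 at 40000 reads, 0.02 with 10 added and 0.02 by the ratio, and that for 36-h/S against 36-h/F, reported as -0.05, to 0.02 with 10 added and 0.02 with the ERCC limit, so neither has a settled sign. The median for 36-h against 2-h, reported as 0.79, was 0.39 at 40000 reads and 0.34 with 10 added. The medians of 0.35 for 16-h against 2-h and 0.45 for 36-h against 16-h were 0.19 and 0.22 at 40000 reads and 0.13 and 0.27 with 10 added.

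Of single genes, ATG22 turned to 0.44 between 36-h/S and 36-h/F by the ratio, and ATG42 to 2.80 among cells with reads only. ATG8 between 36 and 2 h ran from 1.099 to 3.70, and ATG27 between 16-h/S and 16-h/F from -3.28 to -1.12. Depth limits all counts of cells with reads, since most ATG genes had 0 reads in most cells.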
